A study of Mus musculus with 8 samples.

Results

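The enzymes that make and break down heme were followed in peritoneal macrophages (pMacs) of wild-type (WT) and CD1d-deficient (CD1d-KO) mice. They are 9 of the 48795 genes in the deposited tables. The 7 synthesis enzymes were *Alas1*, *Alad*, *Uros*, *Urod*, *Cpox*, *Ppox* and *Fech*, and the 2 degradation enzymes were *Hmox1* and *Blvrb*. They were chosen by their place in the pathway and matched by symbol to Ensembl gene identifiers of GRCm38, and all 9 were among the 13040 genes that had enough reads to be tested.

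Polyadenylated RNA came from unstimulated pMacs purified from the peritoneal cavity of 4 WT (C57BL/6) and 4 CD1d-KO mice, with 1 library per mouse. The mice of the study were adult and matched for age and sex. Both a strain with a germline deletion of *Cd1d1* and its neighbour *Cd1d2*, of mixed C57BL/6 and 129S6 origin, and a floxed *Cd1d* strain crossed to PGK-Cre, which recombines in all tissues, are given as CD1d-KO, and which of them gave these libraries is not stated. CD1d-KO mice lack NKT cells throughout life, so the cells come from a changed host. The mice are numbered 1, 2, 3 and 5 within each genotype, and a WT and a CD1d-KO library with the same number were treated as a pair. The paper names littermates as the controls of these libraries, and its list of mice gives WT as C57BL/6.

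Heme is the iron-containing ring that cytochromes, catalase and the NADPH oxidase need. Its synthesis starts and ends in the mitochondrion, passes through the cytosol, and is set by aminolevulinate synthase, the product of *Alas1* outside the erythroid lineage, whose expression heme itself represses. Macrophages are better known for the opposite task: they take up hemoglobin and heme from damaged red cells, heme oxygenase opens the ring to biliverdin, carbon monoxide and iron, and biliverdin reductases make bilirubin. *Hmox1* is held down by the heme-sensing repressor BACH1 and switched on by the oxidant-sensing factor NRF2.

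*Alas1* was the enzyme with the largest difference between the genotypes, so its start region is shown. In RefSeq on GRCm38.p6 the 250 bases before its upstream start site lie at chr9:106247955-106248204 on the minus strand. In GENCODE M21 the gene reaches to 106248654, so there these bases lie inside the gene. The match to a half-site of the cyclic AMP response element, TGACG, is in capitals. A stretch of 30 bases just past that start, chr9:106247906-106247935, holds the letters GCATGCGC on both strands, a core of the site bound by the nuclear respiratory factor NRF1, and the overlapping matches are in capitals.

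Alas1 promoter: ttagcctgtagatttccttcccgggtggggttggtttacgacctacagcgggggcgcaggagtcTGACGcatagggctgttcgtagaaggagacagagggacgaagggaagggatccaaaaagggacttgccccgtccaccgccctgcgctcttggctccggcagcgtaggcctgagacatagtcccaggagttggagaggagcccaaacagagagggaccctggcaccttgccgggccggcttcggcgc

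Alas1 NRF1 site: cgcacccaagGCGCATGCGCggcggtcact

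RefSeq windows from 250 bases before to 50 bases after a start site were at hand for 7 of the 9 enzymes, in 11 windows, and not for *Fech* and *Hmox1*. Only *Alas1* had the NRF1 letters, in both of its windows, against 2.71% of all 32851 windows. Windows of the same gene can overlap, so the matches in both need not be separate sites. TGACG stood in a window of 5 enzymes (*Alas1*, *Alad*, *Uros*, *Cpox* and *Ppox*) and in 20.81% of all windows. The core of the antioxidant response element, TGACNNNGC, stood in none of the 11 windows and in 12.39% of all windows, and the erythroid GATA letters AGATAA stood in a window of *Cpox* alone and in 11.18% of all windows. Both strands were searched. A match is a description of the letters and not of binding.

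The enzymes differed widely in level. On the TPM scale, which corrects for gene length, *Hmox1* averaged 2667 over the 8 libraries, *Blvrb* 571, *Alas1* 228, *Fech* 19.09, *Urod* 13.045, *Ppox* 8.76, *Cpox* 4.71, *Alad* 4.69 and *Uros* 4.38. Among the genes tested, *Hmox1* ranked 28th by mean TPM, *Blvrb* 214th and *Alas1* 499th, while *Alad*, *Uros* and *Cpox* lay at or above only 30.28% to 31.55% of the genes. The heme oxygenase *Hmox1*, the reductase *Blvrb* and the first enzyme of synthesis were thus expressed far above the synthesis enzymes that follow the first step. The other biliverdin reductase, *Blvra*, which lies outside the list, averaged 40.7 TPM. *Hmox1*, *Blvrb* and *Alas1* kept this order in 8 of 8 libraries, and *Alas1* was above *Fech* in all 8. *Fech* was above *Urod*, and *Urod* above *Ppox*, in 7 of 8 libraries, and *Ppox* above *Cpox* in 8. *Cpox* was above *Alad* in 4 libraries and *Alad* above *Uros* in 4, so these 3 did not differ beyond their spread.

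**Figure D1:**
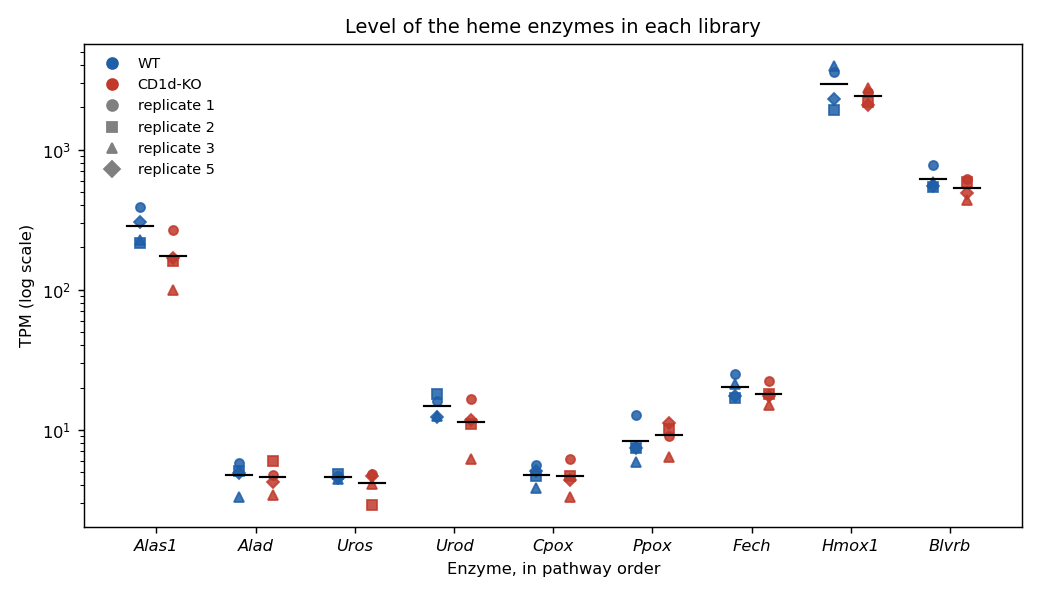
TPM (log axis) of each heme enzyme in the 8 libraries, with WT in blue and CD1d-KO in red, the marker shape giving the replicate number and the black line the mean of each genotype. *Hmox1*, *Blvrb* and *Alas1* lie above 99 TPM in every library, and the other 6 enzymes at or below 25 TPM.

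The least abundant enzymes rest on few reads. *Uros* had 30 to 79 counts per library and *Alad* 33 to 77, against 26155 to 61293 for *Hmox1* and 1682 to 8083 for *Alas1*. For the lowest value, 30 counts of *Uros*, the exact 95% Poisson interval is 20.2 to 42.8 counts, which covers counting error only. *Hmox1* alone took 0.191% to 0.367% of all counted reads.

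The libraries were checked before the genotypes were compared. They held 13698864 to 19059432 counts each. Normalised counts of *Cd1d1* were 68.2, 175, 96.1 and 141 in WT replicates 1, 2, 3 and 5 and 1.14, 0 and 1.10 in CD1d-KO replicates 2, 3 and 5, but 60.7 in the library labelled CD1d-KO replicate 1. With all 8 libraries the log2 fold change of *Cd1d1* was -3.42 (standard error 1.04, adjusted p = 0.233 from edgeR). Each direction below includes the library labelled CD1d-KO replicate 1, and values without pair 1 are given for some of the genes only. The macrophage genes *Adgre1*, *Csf1r*, *Cd68*, *Itgam*, *Gata6*, *Timd4*, *Icam2* and *Lyz2* were all tested, with a summed normalised count of 346200 to 385200 in WT and 288000 to 366400 in CD1d-KO libraries. Most of that sum was *Lyz2*, with 201130 to 292820, and over the 8 genes the median log2 fold change was 0.086, with 5 above 0 and *Timd4* higher in 4 of 4 pairs (0.39, adjusted p = 0.2005 from edgeR). Summed B cell markers ran from 2866 to 7760 in WT and from 1865 to 12940 in CD1d-KO libraries, T and NK cell markers from 14.2 to 26.4 and from 12.1 to 17.4, and mast cell markers from 59.1 to 151.8 and from 36.3 to 112. Mesothelial markers summed to at most 3.30. Neutrophil markers summed to 44.5 to 51.6 in WT and 81.1 to 91.2 in CD1d-KO libraries, nearly all *S100a8*, with *Ly6g* at 0 in all 8 libraries.

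Whether CD1d deficiency goes with a change in heme synthesis was asked of each enzyme in the fit over all genes. None of the 9 enzymes passed both thresholds of the study (adjusted p below 0.01, more than 1.5-fold apart) in the quasi-likelihood test of edgeR, and across all genes 0.0383% did. Without pair 1 the number was also 0. None had an adjusted p under 0.05, as 0.406% of all genes did. At an unadjusted p under 0.05, 2 of the 9 (*Alas1* and *Blvrb*) were lower in CD1d-KO pMacs, against 5.01% of all genes, and 0 were higher, against 7.35%. At the thresholds of the study DESeq2, the tool used there, called 1 of the 9, *Alas1*. Of the genes to which it gave an adjusted p, DESeq2 called 0.795%. The median log2 fold change of the 9 enzymes was -0.14, against 0.0047 over all genes tested, with 8 estimates below 0 and 1 above. It was -0.22 without pair 2 and -0.08 without pair 3. Taken pair by pair, the median over the 9 enzymes of the log2 ratio came to -0.14 in pair 1, 0.014 in pair 2, -0.31 in pair 3 and -0.29 in pair 5.

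*Alas1* (ENSMUSG00000032786, chromosome 9 of GRCm38 from 106233455 to 106248654) encodes the aminolevulinate synthase that commits glycine and succinyl-CoA to heme. Its normalised counts were 6057, 4279, 4242 and 5530 in WT replicates 1, 2, 3 and 5. The CD1d-KO libraries of the same numbers held 4218, 3085, 1976 and 2937. Every CD1d-KO library was thus below every WT library, by a narrow margin between CD1d-KO replicate 1 and WT replicate 3, a separation seen in 0.913% of all genes. No enzyme was separated in the other direction, as 1.04% of all genes were. On the TPM scale the 2 groups overlapped, since CD1d-KO replicate 1 had 264.5 and WT replicate 2 had 215.8.

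The means of *Alas1* were 5027 ± 911 (SD, n = 4) in WT and 3054 ± 919 (SD, n = 4) in CD1d-KO pMacs. The log2 fold change was -0.75 (standard error 0.12, 95% interval -1.02 to -0.48), with an adjusted p of 0.0501 from edgeR and 1.16e-06 from DESeq2. *Alas1* was lower in 4 of 4 pairs, with log2 ratios of -0.52, -0.47, -1.10 and -0.91 in pairs 1, 2, 3 and 5. Over the alternatives the log2 fold change ran from -0.84 to -0.63 and the adjusted p from 1.16e-06 to 0.997. Without pair 1, which holds the library with *Cd1d1* counts, the log2 fold change was -0.83 and the adjusted p from edgeR was 0.0910. An antisense transcript, *4930500F10Rik*, overlaps 695 bases of the gene and had 1.76 counts on average. These libraries hold RNA of a cell population, in which fewer cells of a type and less RNA per cell cannot be told apart.

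The erythroid isoform *Alas2*, which carries the same reaction in red cell precursors, had at most 3 counts in any WT and at most 5 in any CD1d-KO library and was not tested. Of 11 erythroid markers, 10 were found in the annotation, and *Slc4a1*, the anion exchanger of the red cell membrane, was at 0 in all 8 libraries. The summed normalised count of the markers was 9.67 to 72.1 in WT and 9.15 to 287.8 in CD1d-KO libraries, led by globin RNA except in pair 2, where none was counted. The highest sum was in CD1d-KO replicate 3, the library with the lowest *Alas1*, and the part of red cell material in that value was not tested. The sum was 9.67 and 9.15 in pair 2, in which *Alas1* was also lower in the CD1d-KO library.

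The middle enzymes showed smaller differences. *Alad* (ENSMUSG00000028393), the cytosolic dehydratase that joins aminolevulinate to porphobilinogen, had 39.7 to 63.4 normalised counts in WT and 43.5 to 74.4 in CD1d-KO libraries. Its log2 fold change was -0.03 with a 95% interval of -0.48 to 0.41 (adjusted p = 0.964 from edgeR). *Uros* (ENSMUSG00000030979), which closes the ring, had 44.3 to 55.5 and 35.2 to 59.9 normalised counts (log2 fold change -0.07, 95% interval -0.56 to 0.43). Its gene overlaps *Bccip* on the opposite strand by 740 bases.

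*Urod* (ENSMUSG00000028684, chromosome 4 from 116989965 to 116994413), the decarboxylase that trims the side chains of the ring, came next in size after *Alas1*. Its normalised counts were 134.9, 149.4, 98.5 and 141.3 in WT and 131.2, 101.8, 86.9 and 95.6 in CD1d-KO replicates 1, 2, 3 and 5. The groups overlapped, because WT replicate 3 lay below CD1d-KO replicates 1 and 2, yet each CD1d-KO library was below its own partner. On the TPM scale the CD1d-KO library of pair 1 was the higher one (16.59 against 15.98). The log2 fold change was -0.33 (standard error 0.14, 95% interval -0.66 to 0.0030, adjusted p = 0.407 from edgeR). Of all genes, 10.1% were lower in 4 of 4 pairs, and 2 of the 9 enzymes were, *Alas1* and *Urod*.

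*Cpox* (ENSMUSG00000022742), which makes protoporphyrinogen between the mitochondrial membranes, had 123.8 to 158.1 normalised counts in WT and 114.0 to 170.6 in CD1d-KO libraries (log2 fold change -0.06, 95% interval -0.35 to 0.23). *Ppox* (ENSMUSG00000062729, chromosome 1 from 171275990 to 171281186), the oxidase of the last but one step, had 190.3, 187.0, 164.6 and 142.3 normalised counts in WT and 216.1, 192.2, 182.1 and 202.3 in CD1d-KO replicates 1, 2, 3 and 5. It was the single enzyme of the 9 with a higher estimate in CD1d-KO pMacs, and it was higher in 4 of 4 pairs, as 10.6% of all genes were (log2 fold change 0.22 with a standard error of 0.11, adjusted p = 0.481 in edgeR). *Ppox* shares 907 bases with *B4galt3* on the opposite strand, and its expected counts were not whole numbers (over 0.001 from one) in 8 of 8 libraries, so its value depends on how RSEM divided reads. On the TPM scale *Ppox* was lower in the CD1d-KO library of pair 1 (8.98 against 12.72).

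*Fech* (ENSMUSG00000024588), the ferrochelatase that places iron in the ring, had 608.5, 505.1, 624.8 and 491.2 normalised counts in WT and 551.2, 537.7, 472.3 and 454.0 in CD1d-KO replicates 1, 2, 3 and 5. The libraries of the genotypes overlapped, and pair 2 went the other way from the rest (log2 fold change -0.14, standard error 0.091, 95% interval -0.35 to 0.070, adjusted p = 0.583 from edgeR). Over the 7 synthesis enzymes of the list the median log2 fold change was -0.07, beside -0.75 for *Alas1*. The difference between *Alas1* and the later steps was not tested.

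**Figure D2:**
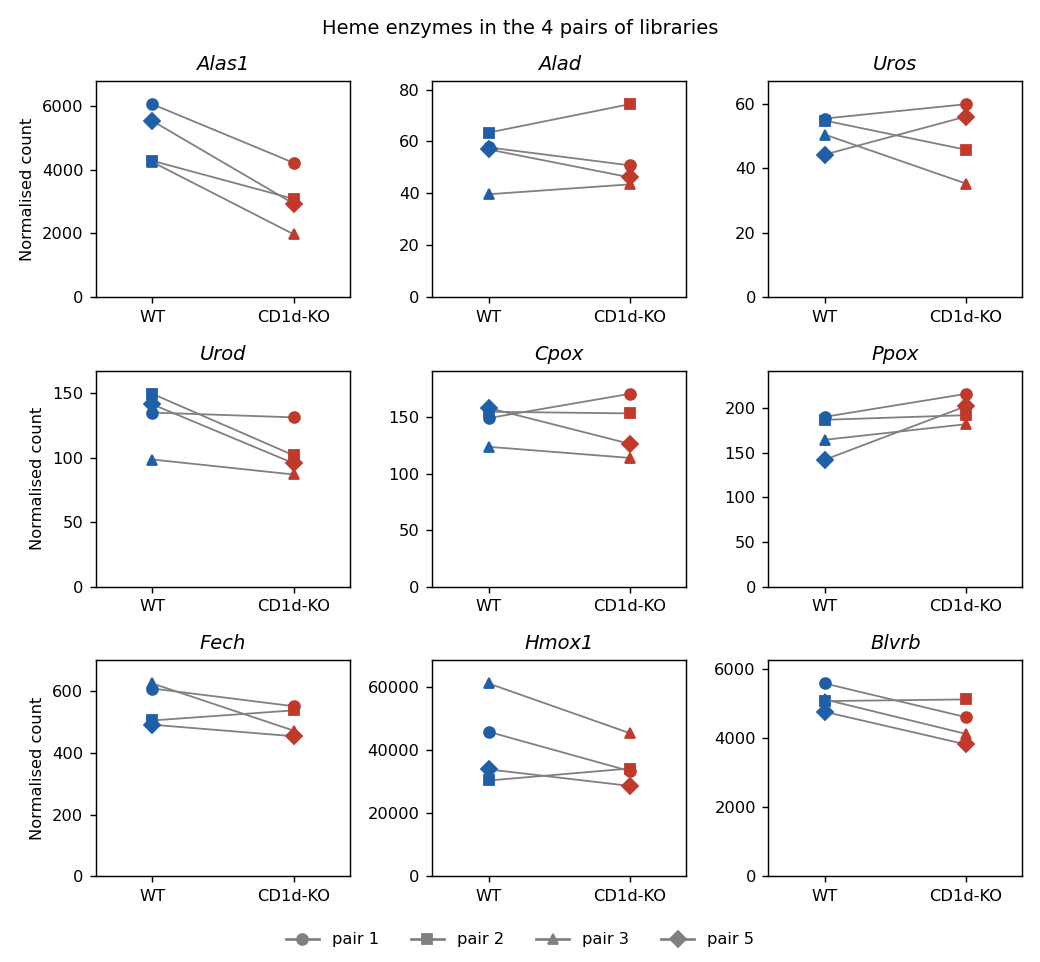
Normalised counts of the 9 heme enzymes in WT (blue) and CD1d-KO (red) libraries, with a grey line joining the 2 libraries of a pair and the y axis of each panel starting at 0. The 4 lines of *Alas1* and *Urod* go down and the 4 lines of *Ppox* go up, and the other panels hold lines in both directions.

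Degradation of heme was read from *Hmox1* and *Blvrb*. *Hmox1* (ENSMUSG00000005413, chromosome 8 from 75093621 to 75100589), the inducible heme oxygenase, had 45928, 30465, 61268 and 33981 normalised counts in WT replicates 1, 2, 3 and 5. In CD1d-KO replicates 1, 2, 3 and 5 it had 33461, 34262, 45498 and 28751. The WT mice differed among themselves by more than the genotypes did, and the groups overlapped widely. The means were 42911 ± 13913 (SD, n = 4) and 35493 ± 7099 (SD, n = 4), with a log2 fold change of -0.24 (standard error 0.12, 95% interval -0.52 to 0.036, adjusted p = 0.461 from edgeR). The CD1d-KO library was lower in pairs 1, 3 and 5 and higher in pair 2. Without pair 2 the log2 fold change of *Hmox1* was -0.37 (adjusted p = 0.124 from edgeR). With pair 1, 3 or 5 left out it was -0.17, -0.18 and -0.24, with adjusted p-values of 0.7154 to 0.7684 from edgeR.

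*Blvrb* (ENSMUSG00000040466, chromosome 7 from 27447978 to 27466144), a biliverdin and flavin reductase, had 5569, 5061, 5108 and 4750 normalised counts in WT and 4596, 5109, 4113 and 3810 in CD1d-KO replicates 1, 2, 3 and 5. It was the steadiest of the 9 enzymes between WT mice, with a coefficient of variation of 6.59%. Pairs 1, 3 and 5 were lower in the CD1d-KO library and the libraries of pair 2 were nearly equal (log2 ratio 0.014). The log2 fold change was -0.22 (standard error 0.082, 95% interval -0.41 to -0.033), with an unadjusted p of 0.0271 and an adjusted p of 0.327 from edgeR.

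The partners of these enzymes lay outside the list of 9. *Blvra* (ENSMUSG00000001999), the main biliverdin reductase of adult tissue, had 467.6, 411.6, 344.9 and 560.8 normalised counts in WT and 437.5, 327.2, 303.1 and 450.7 in CD1d-KO replicates 1, 2, 3 and 5. It was lower in 4 of 4 pairs (log2 fold change -0.23 with a standard error of 0.079, adjusted p = 0.285 in edgeR). *Hmox2* (ENSMUSG00000004070), the constitutive heme oxygenase, went the other way from *Hmox1*, with 631.7, 1119, 1425 and 916 normalised counts in WT and 816.6, 1153, 1625 and 1314 in CD1d-KO libraries. It was higher in 4 of 4 pairs (log2 fold change 0.28 with a standard error of 0.088, adjusted p = 0.243 in edgeR). The gene of *Hmox2* overlaps *Cdip1* on the opposite strand by 16395 bases and its counts were not whole in 8 of 8 libraries. *Hmox1* had 19.6 to 67.5 times the TPM of *Hmox2*.

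*Hmox1* and *Alas1* were also set against each other within each library. The TPM of *Hmox1* was 9.18, 8.90, 17.6 and 7.60 times that of *Alas1* in WT replicates 1, 2, 3 and 5. In CD1d-KO replicates 1, 2, 3 and 5 it was 9.67, 13.71, 27.5 and 12.4 times. The ratio was higher in the CD1d-KO library of each pair, least in pair 1, and the groups overlapped. The ratio was formed after the values were seen and was not tested.

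**Figure D3:**
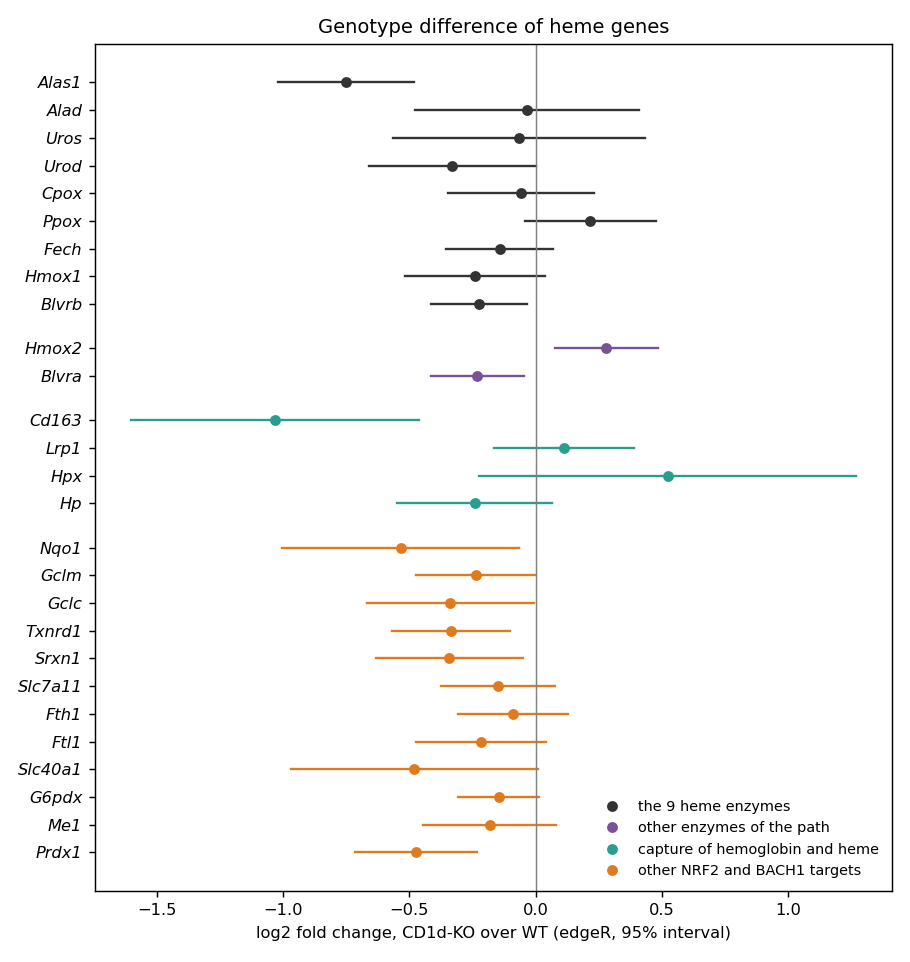
Log2 fold change of CD1d-KO over WT from edgeR (points) with its 95% interval (lines) for the 9 heme enzymes, *Hmox2* and *Blvra*, genes that capture hemoglobin and heme, and other targets of NRF2 and BACH1. *Alas1*, at -0.75, lies farthest from 0 among the enzymes, and the 12 NRF2 and BACH1 targets all lie below 0.

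The enzymes also varied between mice of 1 genotype. The SD of log2 CPM, the log2 of counts scaled to library size, in WT was 0.45 for *Hmox1*, 0.29 for *Alad*, 0.26 for *Urod* and 0.26 for *Alas1*, above the median of 0.24 over all genes tested, and it was 0.094 to 0.19 for the other 5. In CD1d-KO libraries *Alas1* had the largest SD of the 9, at 0.45, against a median of 0.25. The replicate number took 85.2% of the spread within genotypes for *Hmox1*, 84.8% for *Alad*, 82.7% for *Alas1* and 48.2% for *Uros*, beside a median of 75.02% over all genes. The 48.2% of *Uros* is no sign of pairing, because unrelated libraries of the same number also give a large share by construction. For *Hmox1*, replicate 3 was the highest library in both genotypes.

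The 3 tested genes whose profile over the 8 libraries was closest to that of *Alas1* were *Tmem62*, *Gpatch4* and *Rin2*, among 9940 genes with a mean normalised count of at least 50. Their root mean square distances on the log2 scale were 0.14, 0.16 and 0.17, where the profile of *Alas1* itself had a root mean square of 0.49 around its mean. Their log2 fold changes were -0.62, -0.87 and -0.71, and *Rin2* had an adjusted p of 0.0364 from edgeR. These genes were picked for likeness to *Alas1* over the same libraries, so their direction was set by the choice. *Gpatch4* lies 1.04 Mb from *Cd1d1* on chromosome 3, so linked strain DNA may come with the deletion, which was not tested. The closest genes to *Hmox1* were *Atf3*, a stress-induced transcription factor, *Osgin1*, an oxidative stress-induced gene, and *Spire1*, an actin nucleator. Their distances were 0.095, 0.12 and 0.13, against a root mean square of 0.35 for *Hmox1* itself. *Atf3* and *Osgin1* shared with *Hmox1* the high level in replicate 3 of both genotypes, which a choice by likeness favours.

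**Figure D4:**
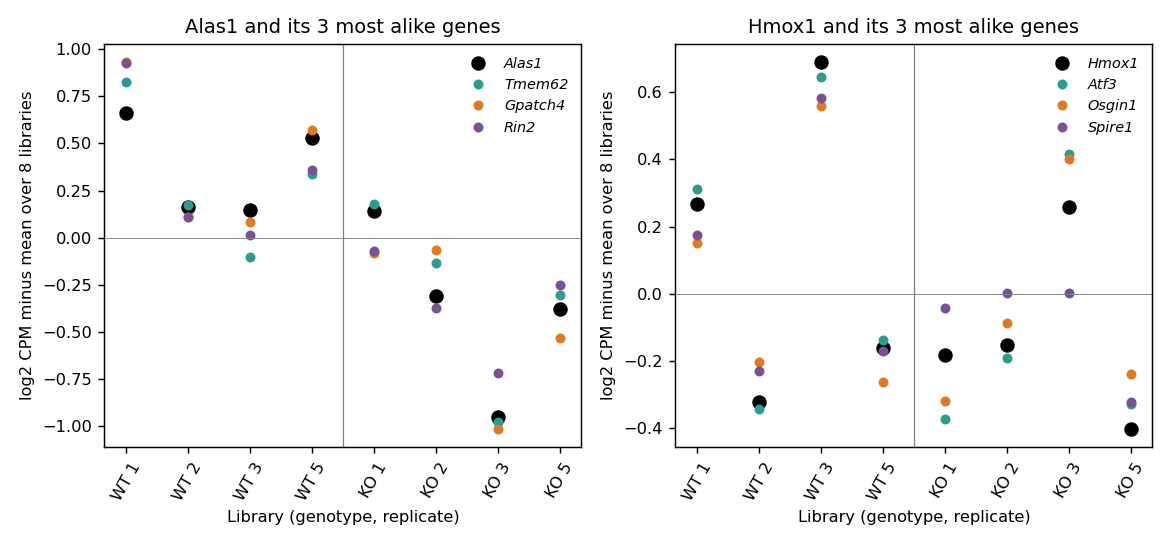
Log2 CPM minus its mean over the 8 libraries for *Alas1* (left, black) and *Hmox1* (right, black) and the 3 genes nearest to each (colours), with a vertical line between WT and CD1d-KO libraries. *Alas1* and its neighbours are lowest in CD1d-KO replicate 3, and *Hmox1* and its neighbours are highest in WT replicate 3.

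Of 14 genes that move heme and its precursors, 12 were tested and 0 passed the thresholds in edgeR or DESeq2. Their estimates were below 0 for 11 and above 0 for 1, with a median log2 fold change of -0.13, and 2 were lower at an unadjusted p under 0.05, beside 5.01% of all genes. *Slc48a1*, which carries heme out of the phagolysosome, averaged 5485 normalised counts in WT mice against 4731 in CD1d-KO mice, a log2 fold change of -0.23 ± 0.096 (standard error), and edgeR gave an adjusted p of 0.400. *Pgrmc1*, a heme-binding partner of ferrochelatase, was lower in 4 of 4 pairs (log2 fold change -0.31 with a standard error of 0.092, adjusted p = 0.229 in edgeR). The others, which include the heme exporter *Flvcr1* and the mitochondrial carrier *Slc25a38*, had estimates from -0.39 to 0.21.

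Of the 4 genes that capture hemoglobin and heme, *Cd163*, the receptor for hemoglobin bound to haptoglobin, had the largest difference. Its mean normalised count was 319.7 for WT and 165.9 for CD1d-KO pMacs, and it was lower in 4 of 4 pairs (log2 fold change -1.03 ± 0.24, standard error, with adjusted p-values of 0.149 in edgeR and 0.00720 in DESeq2). In pair 5 the libraries were nearly equal (log2 ratio -0.065), and the groups overlapped. Without pair 1 the log2 fold change of *Cd163* was -0.91 (adjusted p = 0.407 from edgeR). *Lrp1*, *Hp* and *Hpx* had unadjusted p-values from edgeR of 0.376, 0.107 and 0.143.

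Among 15 regulators, 14 were tested, and 0 passed the thresholds in edgeR and 1, *Spic*, in DESeq2. At an unadjusted p under 0.05 in edgeR, 0 were lower and 2 higher, beside 5.01% and 7.35% of all genes. The heme-sensing repressor *Bach1* (log2 fold change -0.06), the activator *Nfe2l2*, which encodes NRF2 (0.033), its inhibitor *Keap1* (0.074) and *Nrf1*, whose product binds the letters shown for *Alas1* (-0.01), had unadjusted p-values of 0.325 to 0.876. *Spic*, a heme-induced transcription factor of red pulp macrophages, averaged 178.5 normalised counts in WT mice against 344.5 in CD1d-KO mice and was higher in 4 of 4 pairs (log2 fold change 1.08 ± 0.21, standard error, with adjusted p-values of 0.108 in edgeR and 0.00132 in DESeq2). *Ppargc1b*, a coactivator with few counts, was higher in 4 of 4 pairs (log2 fold change 0.99 with a standard error of 0.37, adjusted p = 0.332 in edgeR).

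The other targets of NRF2 and BACH1, the factors that also control *Hmox1*, had estimates below 0. All 12 were tested, all 12 log2 fold changes were below 0, with a median of -0.29, and 5 had an unadjusted p under 0.05 in the lower direction, beside 5.01% of all genes, while 0 passed the thresholds in edgeR or DESeq2. The pairs differed: 11 of the 12 were lower in the CD1d-KO library of pair 1 and all 12 in pairs 3 and 5, but 8 of the 12 were higher in pair 2. *Prdx1*, a peroxide-reducing peroxiredoxin, had a log2 fold change of -0.47 ± 0.10 (standard error), with adjusted p-values of 0.137 in edgeR and 5.9e-04 in DESeq2. The other 4 with an unadjusted p under 0.05 were *Nqo1* (-0.53), *Gclc* (-0.34), *Txnrd1* (-0.33) and *Srxn1* (-0.34). Their adjusted p-values were 0.229 to 0.396 from edgeR and 0.0446 (*Txnrd1*) to 0.386 (*Gclc*) from DESeq2. For 2 of the 12, *Prdx1* and *Txnrd1*, the CD1d-KO libraries all lay below the WT libraries, beside 0.913% of all genes. Without pair 2, in which both were higher in the CD1d-KO library, *Nqo1* was at -0.83 (adjusted p = 0.0264 from edgeR) and *Gclc* at -0.53 (adjusted p = 0.0533 from edgeR). With pair 1, 3 or 5 left out, *Nqo1* was at -0.40, -0.41 and -0.50 and *Gclc* at -0.27, -0.22 and -0.33. The adjusted p-values from edgeR were then 0.6635 to 0.7324. The ferritin chains *Fth1* and *Ftl1*, which store the iron that heme oxygenase frees, had estimates of -0.09 and -0.22. The expected counts of *Prdx1*, *Fth1* and *Ftl1* were not whole in 8 of 8 libraries, as happens where reads also fit other copies, so these values are uncertain.

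Proteins that carry heme, or finish it, were a mixed group of 13, all tested, with 6 estimates below and 7 above 0, and 0 passed the thresholds in edgeR, while DESeq2 called 2, *Cyp51* and *Nos2*. At an unadjusted p under 0.05 in edgeR, 1 was lower and 3 were higher, beside 5.01% and 7.35% of all genes. *Cyp51*, a cytochrome P450 of cholesterol synthesis, had adjusted p-values of 0.0239 in edgeR and 3.13e-06 in DESeq2 (log2 fold change -0.60 ± 0.071, standard error) and was lower in 4 of 4 pairs. *Nos2*, the inducible nitric oxide synthase, was higher in 4 of 4 pairs (log2 fold change 1.74 ± 0.27, standard error, with adjusted p-values of 0.0501 in edgeR and 2.9e-05 in DESeq2), and so was *Ptgs2*, a prostaglandin synthase (log2 fold change 0.32 with a standard error of 0.090, adjusted p = 0.211 in edgeR). *Nos2* had 15 to 172 counts in WT and 38 to 575 in CD1d-KO libraries, with replicate 3 highest in each genotype, and the groups overlapped. Its log2 fold change was 0.96 with limma on log2(TPM + 1) (adjusted p = 0.424 from limma). *Cox15*, which makes heme A for cytochrome oxidase, had a log2 fold change of 0.27 (adjusted p = 0.296 from edgeR), and of 0.095 with limma on log2(TPM + 1). The expected counts of *Cyp51* were not whole in 7 libraries and those of *Cox15* in 8, so both values depend on how RSEM divided reads. *Cybb*, the chain of the NADPH oxidase that holds heme, and *Cyba*, its stabilising partner, had estimates of 0.11 and 0.056, and *Cat*, catalase, of -0.17.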

How the data were processed

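For RNA of pMacs, 1 library per mouse, the authors trimmed single-end reads with Cutadapt, aligned them with STAR 2.5.2a and quantified genes with RSEM 1.3.0 against the Ensembl annotation of GRCm38. The strand setting is not given in the sources used here. The expected counts deposited by the authors are reads assigned to each gene and are not normalized, and RSEM divides reads that fit several genes. The TPM and FPKM values deposited by the authors are scaled for gene length and depth. Of the gene IDs, 99.262% were found in GENCODE M21, which gave symbols and coordinates.

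Counts were rounded, filtered with filterByExpr and scaled by TMM in edgeR 4.0.16 (R 4.3.3), and normalised counts are scaled to the mean library size. The quasi-likelihood test held replicate number and genotype, the covariates of the study, and p-values were adjusted by Benjamini-Hochberg over all 13040 genes. A positive log2 fold change means higher in CD1d-KO. DESeq2 1.42.0 and limma 3.58.1 on log2(TPM + 1) were alternatives, and DESeq2 is the tool that the study itself used. After removing genotype means, the same-numbered WT and CD1d-KO libraries had correlations over genes of 0.487 (number 1), 0.387 (number 2), 0.505 (number 3) and 0.207 (number 5). The highest correlation of a WT library with another number was -0.015, 0.025, 0.059 and 0.22, so number 5 was not closest to its own. All 4 same-number values were above 0.1, so the numbers were used as pairs. No library was a copy of another (28 pairs compared). The fits were tested on simulated data.

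The 9 enzymes and the lists were chosen with earlier results of these data known. Named are the 9 enzymes, *Alas2*, *Hmox2* and *Blvra*, from each list of heme genes those with an unadjusted p under 0.05 or else the lowest p, and the 3 genes most like *Alas1* and *Hmox1*. *Flvcr1*, *Slc25a38*, *Lrp1*, *Hp*, *Hpx*, *Bach1*, *Nfe2l2*, *Keap1*, *Nrf1*, *Fth1*, *Ftl1*, *Cybb*, *Cyba* and *Cat* were named for their roles after their values were seen. Promoter windows came from RefSeq on GRCm38.p6. Some listed genes are not reported here.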

Additional observations from a re-analysis of the deposited data

Results flagged for a closer look

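The normalised count of *Cd1d1* in the library labelled CD1d-KO replicate 1 was 60.65, while the remaining 3 of that genotype had 0 to 1.14, and the gap was 0.981 of the range of the group. It was the 1 distant library found in 24 groups of 4 libraries, tested for the 9 heme enzymes, *Hmox2*, *Blvra* and *Cd1d1* in each genotype, where chance gives about 1 in 20. No heme enzyme had such a library.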

How the results depend on the processing

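Of the 9 heme enzymes, 1 was called (*Alas1*) with DESeq2 and without a filter on counts, and 0 under each of the other alternatives, each replicate left out included. Its adjusted p was 0.0497 with the size factors of DESeq2 in edgeR, 0.0439 in the bias-adjusted fit, and 0.0297 to 0.252 with a pair left out, and it was lower in CD1d-KO pMacs in all of them. At an unadjusted p under 0.05 the number of enzymes was 4 without a filter, 1 with limma, 1 with no replicate block and 1 to 3 with a pair left out (1 without replicate 3 or replicate 5). On log2(TPM + 1), 1 enzyme (*Alas1*) moved the same way in 4 of 4 pairs in place of 3 (*Urod* and *Ppox* did not). The number of genes called across all genes was 236 without a filter, 104 with DESeq2, 3 with limma, 3 with no replicate block, 3 to 22 with a pair left out (22 without replicate 2, 3 without replicate 3 or replicate 5), and 53 at an adjusted p under 0.05 with no fold threshold. With no replicate block the log2 fold change of *Alas1* was -0.72 (adjusted p = 0.997), and 0 of the 9 enzymes were called. The deleted gene *Cd1d1* was itself not called in the main edgeR fit (log2 fold change -3.42, adjusted p = 0.233). It was called at -3.42 without a filter and at -6.35 with DESeq2, and its log2 fold change ran from -7.27 (without replicate 1, called) to -2.81 with a pair left out. The estimates nearest 0 changed sign: with a pair left out *Alad* ran from -0.12 to 0.053 (0.022 without replicate 1 and 0.053 without replicate 5), *Uros* from -0.20 to 0.067 (the highest without replicate 3) and *Cpox* from -0.15 to 0.029 (the highest without replicate 5). *Fech* ran from -0.22 (without replicate 2) to -0.06 (without replicate 3), and *Ppox* was 0.12 without replicate 5. The order of the levels was the same on FPKM. For *Uros* and *Alad*, with under 80 counts per library, differences inside their intervals were not detectable at this depth.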
